A study of Terfezia claveryi
Helianthemum almeriense and Terfezia claveryi with 9 samples.

Results

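Fungal transcripts of the desert truffle Terfezia claveryi were compared between well-watered mycorrhizal roots and cultured mycelium. The comparison takes in all 6 libraries that the labels give to these 2 conditions, of 9 in the series, with 3 libraries per condition and the same 12765 gene models in each. The roots came from Helianthemum almeriense, a small shrub, whose seedlings were 2 months old when spores were added in pots of 300 mL; 3 months later soil moisture was held above 75% and secondary and tertiary roots were frozen. The mycelium was strain T7, shaken at 75 rpm in MMNo medium in the dark at 23 °C for 3 months. RNA came from 100 mg of tissue in either case and was read as pairs of 75 bases. The labels call the 3 libraries of each condition biological replicates. Cultures are a single strain without a host, whereas the roots were colonised from a spore suspension and contain plant tissue as well as fungus, so strain, growth medium, host and tissue all change together between the conditions.

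Terfezia species are ascomycetes that fruit underground in arid soils and form mycorrhizas with rockroses, in which hyphae grow between the cells of the root and can also enter them. In such a symbiosis the fungus receives sugars from the plant and delivers water and mineral nutrients to it. In mycorrhizal fungi as a group, the change from free growth to symbiosis is known to involve genes for nutrient transport, cell wall remodelling and secreted proteins. The gene models here carry Tercla1 identifiers of the JGI catalogue that the files do not pair with names or products, and functions were not analysed here. Gene models are therefore described by their levels, lengths and changes, and only 4 are given by identifier.

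The root libraries were much shallower for the fungus than the cultures. Well-watered replicates 1, 2 and 3 held 1333925, 1635015 and 869998 total gene reads, and cultures 1, 2 and 3 held 15855363, 31854784 and 29997313. These are reads assigned to fungal gene models, and the total sequenced per library was not compared. In bulk roots fewer fungal cells, less RNA per cell, more plant RNA and less sequencing cannot be told apart. A single read was worth 0.612 to 1.15 CPM, a scale on which all libraries have the same sum, in the roots and 0.0314 to 0.0631 CPM in the cultures. All CPM are relative to the fungal total of their own library, so they give the composition of the fungal transcriptome and not its amount. Reads shared between gene models made up 3.03 to 3.16% of the total in roots and 2.65 to 2.78% in cultures.

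Well-watered replicate 1 stood apart from the other well-watered libraries. Each library was thinned to 869998 reads, and the share of reads that would have to be moved between gene models to turn the composition of 1 library into that of another was computed. Well-watered replicates 2 and 3 differed in 8.01% of reads, while replicate 1 differed from them in 21.6% and 22.5%. Cultures 2 and 3 differed in 5.71%, and culture 1 differed from them in 10.04% and 9.40%. Across the 9 pairs of a root library with a culture the share was 39.2 ± 2.27% (SD over pairs that share libraries), with a range from 36.2 to 42.0%. Replicate 1 was the root library nearest to the cultures, at a mean of 36.3%, against 39.8% for replicate 2 and 41.4% for replicate 3. Every pair of a root with a culture therefore differed more than any pair within a condition, with or without replicate 1.

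**Figure D1:**
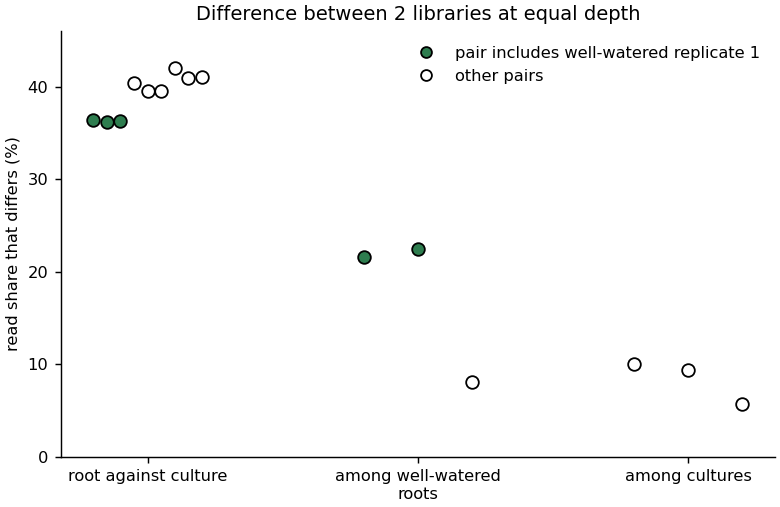
Share of reads (%) that differs between the compositions of 2 libraries after thinning to equal depth; each point is a pair of libraries, and filled points include well-watered replicate 1. Root and culture pairs lie between 36.2 and 42.0%, above all pairs among roots (8.01 to 22.5%) and among cultures (5.71 to 10.04%).

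The common biological coefficient of variation, the spread between replicates beyond counting error as edgeR estimates it, was 0.378 in well-watered roots and 0.175 in cultures, over the 8919 gene models tested. The ratio of 2.17 was 1.32 without well-watered replicate 1 and 4.81 without culture replicate 1. At equal depth and with at least 20 reads in some root library, 40 of 6038 gene models were at least 4-fold higher in well-watered replicate 1 than in either of the other root libraries, and 77 were at least 4-fold lower. The same counts were 5 and 18 for replicate 2, and 9 and 33 for replicate 3. Of the gene models called lower in roots, replicate 1 was the highest of the root libraries in 48.0%, replicate 2 in 24.4% and replicate 3 in 20.7%. Of those not called, replicate 1 was the highest in 46.2%, so this order was not particular to the lowered ones. Of those called higher, replicate 1 was the highest in 35.9% and the lowest in 46.3%, and replicate 3 was the highest in 36.2%. These ranks used CPM without further scaling, and ties for the highest or lowest place were not counted. What set replicate 1 apart was not tested.

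The comparison of roots with cultures asks how the fungal transcriptome differs between symbiosis and free growth when water is not limiting. Gene models were called in both directions and over the whole range of levels. The test covered 8919 gene models, of which 2176 passed as higher in the roots (24.4%) and 2183 as lower (24.5%), 48.9% in all (edgeR quasi-likelihood test, Benjamini-Hochberg adjusted p under 0.05). The gene models called higher had a median of 85.9 CPM in roots and 26.3 CPM in cultures, and those called lower a median of 22.9 CPM in roots and 73.4 CPM in cultures. The median log2 fold change was 1.85 for the higher ones and -1.50 for the lower ones, against -0.11 over all tested. Tested against a 2-fold change and not against 0, 1166 gene models were over 2-fold higher (13.1% of those tested) and 817 over 2-fold lower (9.16%), by edgeR's glmTreat. The near balance of the directions depends on a scaling that centres the fold changes, as TMM does. With DESeq2 size factors, another such scaling, 2231 were called higher and 2118 lower. With total gene reads as the only scaling, 1844 were called higher and 2698 lower. Of all calls 40.6% were then higher, against 49.9% with TMM and 51.3% with DESeq2 size factors. The filter was run again when a library was left out, so the number tested changed too. Without culture replicate 2, 1335 of 7924 tested gene models were called lower and 497 were over 2-fold lower. Without culture replicate 3, 1342 of 7936 were called lower and 495 were over 2-fold lower. Without well-watered replicate 1, 2485 of 9368 were higher and 2832 lower. The CPM of the 2 conditions did not overlap for 2076 gene models that were above the cultures in every root library (23.3%) and for 3530 that were below them in every root library (39.6%), without TMM scaling.

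**Figure D2:**
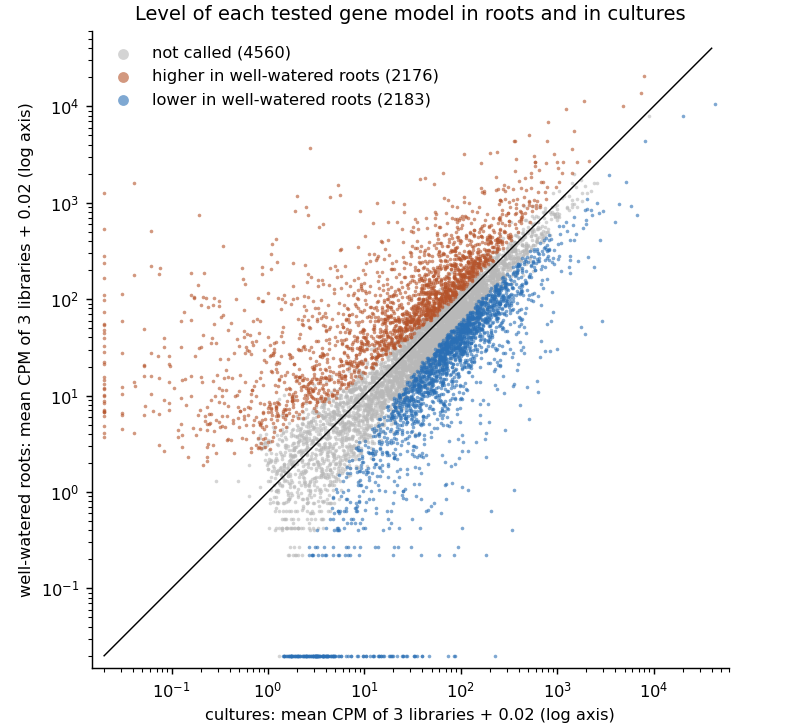
Mean CPM of each of the 8919 tested gene models in well-watered roots (vertical, log axis) against cultures (horizontal, log axis), with 0.02 CPM added so that gene models without reads appear at the edges; the line marks equal levels. The 2176 models called higher and the 2183 called lower lie on either side of the line at all levels, and the row at the bottom holds models with no read in any root library.

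Gene models called higher supplied a larger share of reads in every root library than those called lower or those without a call. They took 49.1%, 54.2% and 55.4% of total gene reads in well-watered replicates 1, 2 and 3, against 16.9%, 17.4% and 17.4% in cultures 1, 2 and 3. Gene models called lower took 14.9%, 13.2% and 12.3% in the roots, against 42.9%, 42.4% and 42.7% in the cultures. The 4560 gene models without a call took 33.5 ± 2.06% in the roots and 40.0 ± 0.193% in the cultures (SD, n = 3 each). The first 2 sets were selected on these libraries, so their shares are a description of the size of the shift and are not tested. Within the roots, replicate 1 had the smallest share in gene models called higher and the largest in those called lower.

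The shift was carried by many gene models and not by a few. Between the mean composition of roots and that of cultures, 37.5 percentage points of the reads moved: 4348 gene models gained share and 6811 lost it. Any difference in share was counted here, however small. The 10 largest gains made up 17.2% of the whole gain and the 10 largest losses 20.04% of the whole loss. For the 100 largest these shares were 47.7% and 40.1%. On average the 100 most abundant gene models of a library took 28.2% of reads in roots and 26.5% in cultures. It took 115 gene models to account for 50% of the gain and 212 to account for 50% of the loss, with ranges from 112 to 119 and from 201 to 244 when each library was left out.

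The largest gain was that of a gene model of 2288 bases. It took 1.39%, 2.39% and 2.43% of reads in well-watered replicates 1, 2 and 3, against 0.583%, 0.886% and 0.927% in cultures 1, 2 and 3. All root libraries were above all cultures, with a log2 fold change of 1.59 ± 0.32 (SE, edgeR adjusted p = 0.00415). The largest loss was that of a gene model of 575 bases, which took 1.21%, 1.07% and 0.870% in the roots, against 4.55%, 4.18% and 4.30% in the cultures. Its log2 fold change was -1.85 ± 0.20 (SE, edgeR adjusted p = 0.000200), with no overlap between conditions. By RPKM, the authors' reads scaled to gene model length and to library total, it still ranked as the most abundant gene model in both conditions, at 18234 ± 2961 RPKM in roots and 75530 ± 3267 RPKM in cultures (SD, n = 3 each).

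The most abundant gene models were partly exchanged. Ranked by mean RPKM, 4 of the 10 most abundant gene models in roots were also among the 10 most abundant in cultures, 48 of the top 100 were shared, and 594 of the top 1000. Of the 100 most abundant in roots, 57 were called higher than in cultures, 12 lower, and 31 did not pass the test. Of the 100 most abundant in cultures, 7 were called higher in roots, 53 lower, and 40 did not pass. Over all tested gene models 24.4% were called higher and 24.5% lower; the lists were ranked on the libraries that are compared, which favours calls in the direction of the ranking, so nothing is read from these counts. The top 1000 of the roots included 51 gene models with a mean under 10 RPKM in cultures, and the top 1000 of the cultures included 16 with a mean under 10 RPKM in roots.

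Levels were also set out in classes of mean CPM: under 1, 1 to 10, 10 to 100, and 100 or above. Of the 12765 gene models, 3348 were under 1 CPM in both conditions and 5741 others stayed within their class. A further 1495 stood 1 class higher in roots than in cultures and 1861 stood 1 class lower. A move of 2 or more classes was made by 214 gene models upwards and by 106 downwards. Among these, 32 gene models were at 100 CPM or above in roots and under 1 CPM in cultures, and 5 were under 1 CPM in roots and at 100 CPM or above in cultures. In the shallowest root library a single read is 1.15 CPM, so the lowest class is coarse in roots.

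The size of the changes is best read from gene models with reads on both sides. A set of 5957 gene models had at least 10 total gene reads in each of the 6 libraries. Of these, 1732 were called higher (29.1%, against 24.4% of all tested) and 1319 lower (22.1%, against 24.5%), and their median log2 fold change was 0.04, against -0.11 over all tested. In this set 150 gene models had a fitted rise of 16-fold or more and 10 a fitted fall of that size, against 370 and 260 among all tested. The minimum does not treat the directions alike: 10 reads are 11.5 CPM in the shallowest root library and 0.631 CPM in the shallowest culture, so a large fall leaves the set sooner than a large rise. Of the 168 gene models with a fitted fall above 64-fold, 150 had no read in any root library, and for these the fitted fold depends on the prior count of the fit and is no measured fold. Of the 169 with a fitted rise above 64-fold, 34 had no read in any culture.

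**Figure D3:**
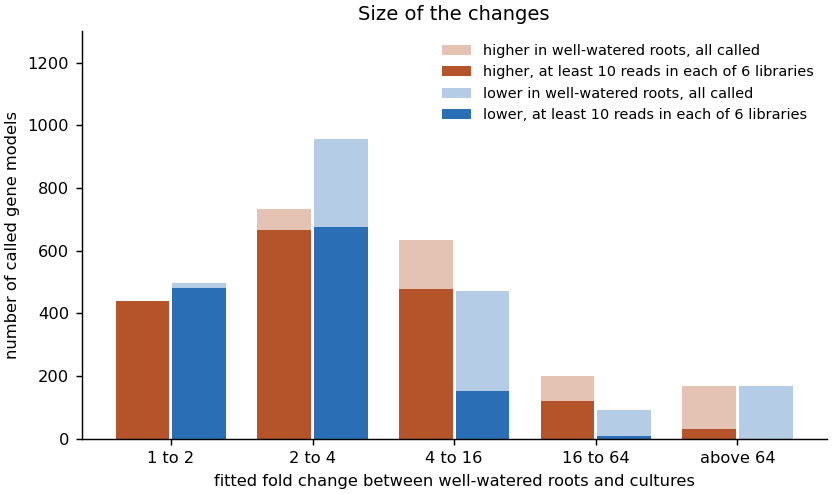
Number of called gene models (edgeR adjusted p under 0.05) by class of fitted fold change between well-watered roots and cultures; pale bars count all called models and dark bars those with at least 10 reads in each of the 6 libraries. Of the models changed 16-fold to 64-fold, 120 of 201 higher ones and 10 of 92 lower ones are in the dark bars; above 64-fold the dark bars hold 30 of 169 higher and 0 of 168 lower ones.

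A further rule took only called gene models. It asked for such reads on both sides, no overlap between conditions and at least 90% of reads unique to the gene model. This left 1472 of the 2176 called higher in roots and 1253 of the 2183 called lower, of 8919 tested. The 2 largest fitted rises and the 2 largest fitted falls among them are given by identifier.

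The largest measured rise was that of jgi|Tercla1|1090450| (1530 bases). It stood at 5694, 2789 and 2602 CPM in well-watered replicates 1, 2 and 3, against 1.83, 2.89 and 3.47 CPM in cultures 1, 2 and 3. Every root library was far above every culture, and replicate 1 was above the other root libraries. The log2 fold change was 10.56 ± 0.50 (SE, edgeR adjusted p = 6.03e-06), a fitted 1511-fold rise. By mean RPKM the gene model ranked 23 in roots, at 2415 ± 1133 RPKM, and 8493 in cultures, at 1.78 ± 0.543 RPKM (SD, n = 3 each). Its culture level rests on 29, 92 and 104 reads, so it was read in strain T7.

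jgi|Tercla1|1144743| (1782 bases) had the steadiest values of the 4. It stood at 1124, 1220 and 1138 CPM in well-watered replicates 1, 2 and 3, against 1.89, 1.91 and 2.13 CPM in cultures 1, 2 and 3. The root libraries lay within a narrow range, and replicate 1 did not stand apart for this gene model. The log2 fold change was 9.40 ± 0.25 (SE, edgeR adjusted p = 1.25e-06), a fitted 674-fold rise. Its rank by mean RPKM was 155 in roots and 8845 in cultures.

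The falls of the other two gene models were close in size, and their order turned when libraries were left out. jgi|Tercla1|815465| (1999 bases) stood at 106, 58.7 and 12.6 CPM in well-watered replicates 1, 2 and 3, against 2695, 2922 and 3072 CPM in cultures 1, 2 and 3. The root libraries differed widely among themselves, and all were far below the cultures. The log2 fold change was -5.40 ± 0.59 (SE, edgeR adjusted p = 0.000206), a fitted 42.1-fold fall. Its rank by mean RPKM was 4059 in roots and 47 in cultures, where it averaged 1449 ± 94.9 RPKM, against 29.6 ± 23.5 RPKM in roots (SD, n = 3 each). The value of replicate 3 rests on 11 reads.

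jgi|Tercla1|1213344| (2417 bases) stood at 94.5, 23.2 and 11.5 CPM in well-watered replicates 1, 2 and 3, against 2669, 1558 and 1547 CPM in cultures 1, 2 and 3. Replicate 1 of either condition was the highest of its group, and the groups did not overlap. The log2 fold change was -5.28 ± 0.67 (SE, edgeR adjusted p = 0.000438), a fitted 38.9-fold fall. Without well-watered replicate 1 it was -6.47 (edgeR adjusted p = 1.30e-05), a larger fall than the -5.97 of jgi|Tercla1|815465| without that library. It was also the larger of the falls without culture replicate 2, at -5.40 against -5.38, and without culture replicate 3, at -5.40 against -5.33. Its rank by mean RPKM was 5298 in roots and 131 in cultures. The value of well-watered replicate 3 rests on 10 reads, the minimum that the rule asked for. All reads of these 4 gene models were unique to them.

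**Figure D4:**
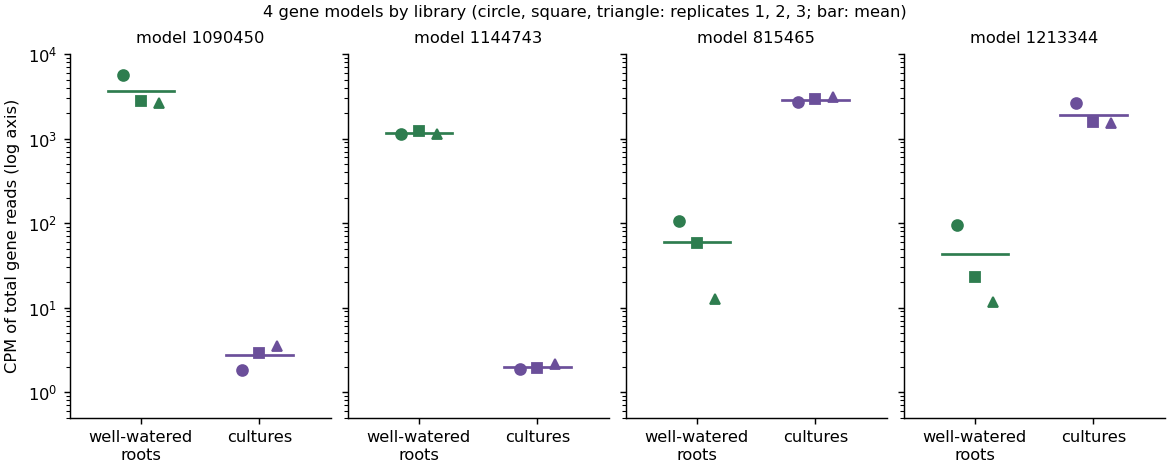
CPM of total gene reads (log axis) of 4 gene models in each library of well-watered roots (left in each panel) and cultures (right); symbols mark replicates 1, 2 and 3 and bars the mean. Models 1090450 and 1144743 lie at 1124 to 5694 CPM in roots and at 1.83 to 3.47 CPM in cultures, and models 815465 and 1213344 at 11.5 to 106 CPM in roots and at 1547 to 3072 CPM in cultures.

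Some gene models had reads in 1 condition and none in the other. Each root library held 10 or more reads of 18 gene models that had 0 in all cultures; 3 counts over the 3 cultures, the floor used, are 0.0386 CPM. Their mean level in roots had a median of 54.2 CPM and ran from 11.7 to 1261 CPM, and 6 of them exceeded 100 CPM. With root reads pooled over the 3 libraries and set against the floor, they were at least 310-fold higher in roots, with a median bound of 1424-fold; pooling weights deeper libraries more, so these bounds differ slightly from the ratio of the mean CPM to the floor. In the other direction, 45 gene models had 0 reads in all root libraries, where the floor of 3 counts is 0.781 CPM, and 100 or more in each culture. Their mean level in cultures had a median of 15.9 CPM and ran from 4.80 to 226 CPM, and a single gene model exceeded 100 CPM. With culture reads pooled in the same way, they were at least 5.58-fold lower in roots, with a median bound of 19.3-fold. The minimum of 10 or 100 reads and the floors of 0.0386 and 0.781 CPM limit how low these bounds can be. Bounds of the 2 directions are therefore not comparable, and nothing is read from their sizes.

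The count of 45 was 88 without well-watered replicate 2 and 78 without culture replicate 1. Over 50% of the reads were shared with other gene models in 2 of the 18 and in 5 of the 45. A gene model without reads may be silent in that condition or missing from the fungus sampled there, since the cultures were strain T7 and the roots grew from spores; these cannot be told apart here. The roots also contain plant tissue, and no library of roots without the fungus was compared. Whether plant reads were assigned to the 18 gene models was not tested. Together these gene models took 0.276 to 0.370% of reads in the roots (the 18) and 0.116 to 0.129% in the cultures (the 45).

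Transcripts in every root library came from longer gene models, on average, than in any culture. Length was solved from the deposited counts and RPKM. The mean gene model length weighted by RPKM was 1289, 1337 and 1362 bases in well-watered replicates 1, 2 and 3, against 1157, 1174 and 1168 bases in cultures 1, 2 and 3. The difference of 163 bases had no overlap between conditions and a p of 0.1 in an exact two-sided permutation test, as low as 3 against 3 can reach (0.138 after Benjamini-Hochberg adjustment over 18 tests of whole-library measures). Without the 10 most abundant gene models it was 119 bases. The same order appeared among the calls: 18.2% of the gene models in the shortest of 4 equal groups by length (156 to 836 bases) and 28.7% in the longest (1971 to 16791 bases) were called higher in roots, against 24.4% of all tested. Called lower were 25.7% in the shortest and 23.1% in the longest group, against 24.5%. The median log2 fold change was -0.27 in the shortest and -0.01 in the longest group. Longer gene models collect more reads at the same level, which helps any test, and the part of this in the counts was not tested. Gene models of at most 300 bases took 0.525 ± 0.0246% of reads in roots and 0.642 ± 0.0393% in cultures (SD, n = 3 each).

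In every root library fewer gene models had a read than in any culture, also in a single random thinning to equal depth. After thinning to 869998 reads, 8679, 8838 and 8538 gene models had a read in well-watered replicates 1, 2 and 3, against 8849, 9012 and 8897 in cultures 1, 2 and 3. The highest root library and the lowest culture lay close together, at 8838 and 8849 (exact two-sided permutation p = 0.1, adjusted 0.138). On unique gene reads the conditions overlapped (exact p = 0.2). Whether another draw of the thinning would keep the conditions apart was not tested. With all reads, 8538 to 9083 gene models were detected in roots and 10223 to 10801 in cultures.

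The evenness of the read shares was given as an effective number of gene models, the number of equally abundant models that would have the same Shannon entropy. It was 2395, 2154 and 2156 in well-watered replicates 1, 2 and 3, against 2383, 2467 and 2376 in cultures 1, 2 and 3. Replicates 2 and 3 lay below all cultures and replicate 1 lay among them (exact two-sided permutation p = 0.3). Without the 10 most abundant gene models all root libraries were lower, at 2901 ± 121 in roots and 3345 ± 53.1 in cultures (SD, n = 3 each, exact p = 0.1, adjusted 0.138). The single most abundant gene model of each library took 1.67 to 2.43% of reads in roots and 4.18 to 4.55% in cultures, while the 1000 most abundant took 62.9 to 65.9% in roots and 60.4 to 61.0% in cultures.

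**Figure D5:**
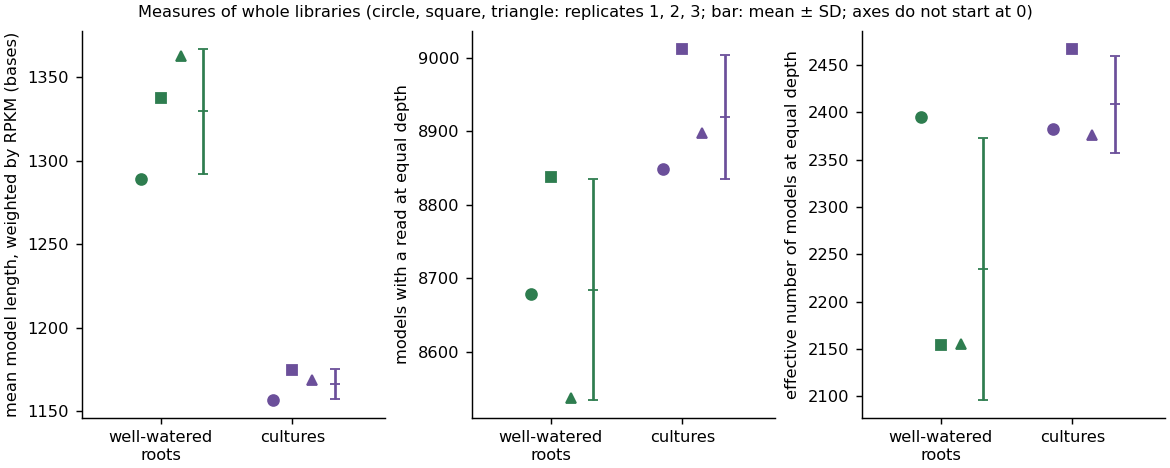
Gene model length weighted by RPKM (bases), gene models with a read at equal depth, and effective number of gene models at equal depth, for each library of well-watered roots (left) and cultures (right); symbols mark replicates 1, 2 and 3, and bars the mean ± SD. Roots lie at 1289 to 1362 bases and cultures at 1157 to 1174 bases, while the effective number overlaps because well-watered replicate 1 lies at 2395.

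Calls were found at all levels of expression. Tested gene models were divided into 4 equal groups by the mean of their root and culture levels. In the lowest group (up to 13.8 CPM) 19.5% were called higher and 18.0% lower, and in the highest (above 102 CPM) 33.7% were called higher and 25.9% lower, against 24.4% and 24.5% of all tested. The median size of the log2 fold change, without its sign, was 1.24 in the lowest and 0.81 in the highest group. Among the 417 tested gene models with over 50% of reads shared with others, 120 were called higher and 80 lower, 48.0% in all, close to the 48.9% of all tested; no source used here says how shared reads were assigned, so the levels of these gene models are uncertain.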

How the data were processed

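The deposited files give, per library and gene model, unique and total gene reads (counts per the file headers) and RPKM computed by the authors; per the submitters' processing notes, the tools included FastQC, Bowtie2 2.3.0 and SAMtools 1.7. Counting program, filters and strand use: not given in the sources used here. In each of 11159 gene models read in these 6 libraries, total gene reads and deposited RPKM gave 1 whole-number length across libraries (relative tolerance 1e-05). Drought libraries were not used.

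Total gene reads were tested with edgeR 4.0.16 in R 4.3.3 (filterByExpr, TMM scaling, robust quasi-likelihood F test; glmTreat for changes over 2-fold). Filtering left 8919 gene models; the 3846 not tested held at most 0.142% of the reads of any library. Adjusted p under 0.05 is called changed. SE came from the F statistic. The step was tested on simulated data in which both conditions had the same spread, unlike the libraries here. Measures of whole libraries used exact two-sided permutation tests. Depth was 869998 to 1635015 reads in roots and 15855363 to 31854784 in cultures; reads are not independent molecules, so floors of 3 counts cover counting error only.

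Alternatives were DESeq2 1.42.0, limma-voom (limma 3.58.1), other scalings and filters, thinning, unique gene reads, a stricter p, the replicate number as a block, and leaving out each library. Given by identifier are the 2 largest fitted rises and falls among called gene models with at least 10 reads in all 6 libraries, no overlap and at least 90% unique reads. Members, tests and rules were chosen with earlier results of these data known. Leaving out libraries for the level classes and the models carrying the shift was added after seeing the data, as were read shares by set.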

Additional observations from a re-analysis of the deposited data

How the results depend on the processing

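Across the 4 counts of calls, the numbers stayed within 1.5 times the reported ones under other scalings and filters, thinning and unique gene reads; DESeq2 and limma-voom were run for the counts of higher and lower only, with 2522 and 2467 by DESeq2 and 2138 and 2265 by limma-voom. At an adjusted p under 0.01, gene models called lower numbered 1251 and those over 2-fold lower 421. Scaling by total gene reads alone gave 1844 higher and 2698 lower, and moved the median log2 fold change of all tested gene models by -0.20, to -0.31. Leaving out each library gave 1603 to 2485 higher, 1335 to 2832 lower, 907 to 1352 over 2-fold higher and 495 to 1095 over 2-fold lower. The number tested changed as well: 7924 to 9378 without each library, 6951 after thinning and 11159 without the filter, against 8919. Gene models read only in roots numbered 60 after thinning, where fewer culture reads are left, and 19 to 24 without each library. Those read only in cultures numbered 2 after thinning, where 100 reads are a stricter minimum, 75 with at most 1 read per root library, and 45 to 88 without each library. The ratio of the coefficients of variation ran from 1.32 to 4.81 without each library. Differences in length, detected gene models and effective number kept their direction in all 27 alternatives, and the 4 gene models given by identifier kept direction and call in all 60, with adjusted p up to 0.00499. Replicate numbers were not treated as pairs in the main test. Deviations of same-numbered libraries correlated at 0.10, 0.00 and 0.04, and those of differently numbered ones at -0.10 to 0.09. With 3 libraries per condition these values cannot settle whether the numbers pair the samples. With the replicate block 1891 gene models were higher and 1963 lower, 1006 over 2-fold higher and 693 over 2-fold lower. A single read is worth 0.612 to 1.15 CPM in the roots and 0.0314 to 0.0631 CPM in the cultures. Large falls are therefore measured more coarsely than large rises. After thinning, 1754 gene models were called higher and 1538 lower, and the part of depth in the counts of calls was not tested.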
